A study of Mus musculus with 6 samples.

Results

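Glycolysis is the chain of cytosolic reactions that converts glucose to pyruvate and, where lactate dehydrogenase acts, to lactate, and each step is catalysed by its own enzyme or by a small family of isozymes. The genes considered here are a list of 10 mouse genes that encode enzymes of this chain, taken by gene symbol from the count table in the order of the pathway: the hexokinases Hk1 and Hk2, the phosphofructokinases Pfkl and Pfkp, the aldolase Aldoa, the triose phosphate isomerase Tpi1, the phosphoglycerate kinase Pgk1, the enolase Eno1, the pyruvate kinase Pkm and the lactate dehydrogenase Ldha. A row was matched for 9 of the 10 listed genes, among 11922 genes in the table, and the expression of Eno1 was not analysed here. The rule used gene symbols and no measured value, and all 9 genes passed the filter on low counts. In activated T cells this pathway is known to run at a high rate even in the presence of oxygen, with much of the pyruvate leaving the cell as lactate, and transcription factors such as MYC and HIF1 are known to raise the transcription of many of its genes.

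The libraries came from splenic CD8+ T cells of C57BL6/J mice, purified on magnetic beads against CD8α and activated for 72 hours with beads carrying anti-CD3 and anti-CD28 in medium with IL-2 at 100 units per ml, then expanded in IL-2 for 4 days. One group received water as vehicle throughout, and the other received aminoxyacetic acid (AOA) at 0.25 mM throughout, a compound that blocks enzymes using pyridoxal 5'-phosphate, the active form of vitamin B6. Cells were lysed on day 7, and each group has 3 libraries, from mouse donors that the labels number 1 to 3 in both groups. The labels state neither the age nor the sex of the mice. The cells were a polyclonal bulk culture, and AOA acts on a whole class of enzymes and not on a single one.

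Total counts ranged from 12881962 to 18934869 in the vehicle libraries and from 18696114 to 21997078 in the AOA libraries. Levels are given as CPM, counts scaled to a common library size after TMM normalisation, and RPKM values divide these further by the deposited gene length so that genes can be compared with each other. Vehicle replicate 2 and AOA replicate 1 stood apart from the other libraries of their groups: the chi-square per gene was 55.1 and 59.7 for vehicle replicate 2 against the others of its group, where vehicle replicates 1 and 3 gave 10.02, and 71.1 and 64.6 for AOA replicate 1, where AOA replicates 2 and 3 gave 10.5. Of 6 listed markers of CD8 T cells 5 were matched, and their summed level was 2908 to 3737 CPM with vehicle and 3994 to 4644 CPM with AOA. Within this sum Cd8a and Cd8b1 were called higher, with log2 fold changes of 1.03 and 0.64, and Cd3d, Cd3e and Cd3g were not called, at -0.13, -0.27 and -0.31. Of 16 listed markers of CD4 T, B, myeloid, NK and erythroid cells 9 were matched, with a summed level of 121.7 to 194.7 CPM with vehicle and 38.4 to 49.9 CPM with AOA. Cd4 and Klrb1c made up most of this sum with vehicle and were called lower with AOA (-3.08 and -3.02 on the log2 scale), while Cd79b, a B cell marker, had the highest mean of these markers with AOA, at 23.7 CPM against 11.7 CPM with vehicle, and was called higher (1.01). The NK cell marker Klrb1c was at 111 CPM in vehicle replicate 2 against 41.7 and 20.1 CPM in vehicle replicates 1 and 3, and Ncr1 had 37 counts there against 0 and 0. Lyz2, Cd14 and Ncr1 were each at 0 in at least 1 library. The part of these other cells in the results was not tested, and in bulk cultures fewer cells of a type cannot be told apart from less RNA per cell.

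With AOA, 5 of the 9 enzymes were higher, 1 was lower and 3 were not called at an adjusted p under 0.05. By the ratio of mean CPM, Tpi1 and Ldha rose most, 3.10-fold and 2.61-fold, followed by Hk2, Pfkl and Pkm, while Aldoa fell to 0.535 of its vehicle level, and Hk1, Pfkp and Pgk1 were not called. Across all 11759 genes tested, 53.0% were called, with 26.2% higher and 26.8% lower, so that the count of 6 among 9 lies near the background and is not by itself a result about the list. The median log2 fold change of the 9 enzymes was 0.72, beside -0.02 for all genes tested. Within each mouse, the median difference in log2 CPM over the 9 enzymes was 0.48, 0.68 and 0.69 in mice 1, 2 and 3. The 3 AOA libraries did not overlap the 3 vehicle libraries for 5 of the enzymes, 4 higher and 1 lower, while 62.1% of all genes tested had groups that did not overlap. Calls whose log2 fold change was also 1 or more in size were left for 2 enzymes, Tpi1 and Ldha, beside 26.2% of all genes tested. Without vehicle replicate 1 or without vehicle replicate 3 the number of called enzymes was 4, while the calls over all genes were 4952 of 11814 and 5125 of 11810. Without both libraries that stood apart, vehicle replicate 2 and AOA replicate 1, it was 8, with 6 higher and 2 lower, while 7838 of 11775 genes tested were called. Together the 9 genes took 0.355% ± 0.0350 (SD, n = 3) of all counts with vehicle and 0.472% ± 0.0402 (SD, n = 3) with AOA.

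**Figure D1:**
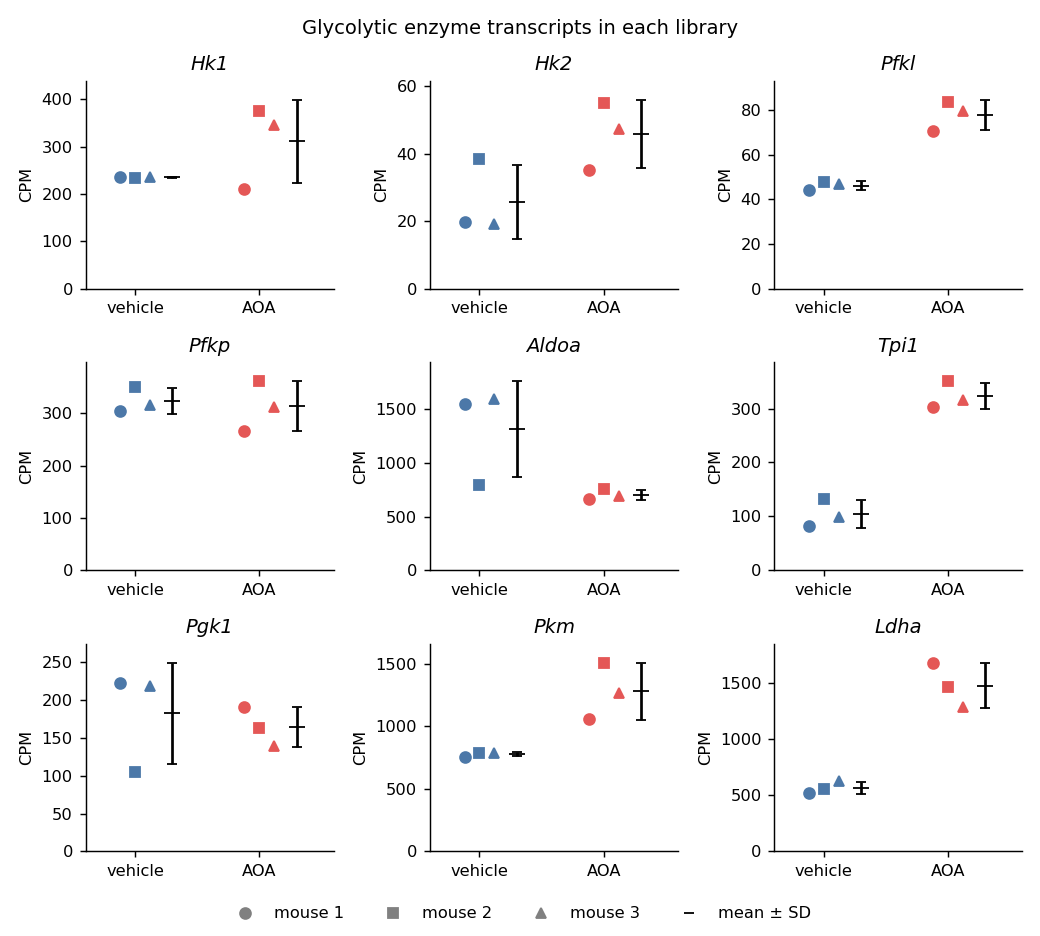
Level of each of the 9 enzymes in CPM (vertical axes, each from 0) in the 3 vehicle (blue) and 3 AOA (red) libraries, with the mouse shown by the shape of the point and the bar giving the mean ± SD. Pfkl, Tpi1, Pkm and Ldha are separated upwards with AOA and Aldoa downwards, while vehicle replicate 2 lies far from the other vehicle libraries for Hk2, Aldoa and Pgk1.

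Hexokinase traps glucose in the cell by phosphorylating it, and both isozymes on the list carry out this step at the outer face of mitochondria or free in the cytosol. Hk1 (Entrez gene 15275, chromosome 10 from 62268855 to 62379920 of GRCm38.p6) had 234.8, 233.9 and 235.9 CPM in vehicle replicates 1, 2 and 3, and 211.0, 375.3 and 345.9 CPM in AOA replicates 1, 2 and 3. The vehicle libraries were nearly identical, and AOA replicate 1 lay below them while the other AOA libraries lay above. Its log2 fold change of 0.40 (standard error, SE, 0.21) was not called (edgeR adjusted p = 0.128), with a 95% confidence interval from -0.06 to 0.87. Without AOA replicate 1 it was 0.62 and called (adjusted p = 0.00367), and without AOA replicate 2 it was 0.25 (0.375), in a range of adjusted p over all alternatives from 2.37e-04 to 0.375. Hk2 (Entrez gene 15277, chromosome 6 from 82725025 to 82774454), the isozyme known to be induced on T cell activation, had 19.7, 38.5 and 19.1 CPM with vehicle and 35.2, 55.2 and 47.3 CPM with AOA. Vehicle replicate 2 was higher than AOA replicate 1, so the groups overlapped, although the AOA culture was higher in all 3 mice. The log2 fold change was 0.83 (SE 0.28, edgeR adjusted p = 0.0330). This call was lost without vehicle replicate 1 (0.69, adjusted p = 0.106), vehicle replicate 3 (0.68, 0.0983), AOA replicate 2 (0.68, 0.107) or AOA replicate 3 (0.81, 0.0837), and without vehicle replicate 2 the value rose to 1.28 (0.000652). Over all alternatives its adjusted p lay between 3.20e-05 and 0.107.

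Phosphofructokinase commits the sugar to glycolysis, and its subunits form mixed tetramers. Pfkl (Entrez gene 18641, chromosome 10 from 77986947 to 78009807), the liver-type subunit, had 44.0, 47.9 and 46.7 CPM with vehicle and 70.5, 83.6 and 79.4 CPM with AOA. Every AOA library was above every vehicle library, and the log2 fold change was 0.75 (SE 0.13, edgeR adjusted p = 0.00110). Pfkp (Entrez gene 56421, chromosome 13 from 6579874 to 6649060), the platelet-type subunit, had 304.5, 350.8 and 315.2 CPM with vehicle and 265.4, 361.1 and 312.6 CPM with AOA. The groups overlapped throughout, and the log2 fold change of -0.05 was not called (edgeR adjusted p = 0.816), with a 95% confidence interval from -0.40 to 0.30. In both groups mouse 2 had the highest level of Pfkp.

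Because a ratio of isozymes within a library does not depend on the library size, the shift between the subunits was also followed in that form. The RPKM of Pfkp was 6.14, 6.50 and 5.996 times that of Pfkl in the vehicle libraries and 3.34, 3.83 and 3.50 times in the AOA libraries. The log2 ratio fell by 0.81 and fell in each of the 3 mice, by 0.88, 0.76 and 0.78. An exact permutation test (two-sided) gave p = 0.1, the smallest that 3 libraries against 3 allow, and an adjusted p of 0.2 over the 4 ratios compared. As a share of the summed RPKM of Pfkl, Pfkp and Pfkm, Pfkl made up 12.4% ± 0.106 (SD, n = 3) with vehicle and 20.01% ± 0.943 (SD, n = 3) with AOA, and the summed RPKM was 100.5 ± 4.13 and 105.1 ± 13.8. The RPKM of Hk2 was 0.0686, 0.135 and 0.0663 times that of Hk1 with vehicle and 0.136, 0.120 and 0.112 times with AOA. That ratio moved up in mice 1 and 3 and down in mouse 2 (exact permutation p = 0.3, adjusted 0.3), and Hk1 made up between 86.0% and 91.7% of the summed hexokinase RPKM in each library.

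Aldolase splits the phosphorylated hexose into a pair of triose phosphates, and triose phosphate isomerase interconverts these. Aldoa (Entrez gene 11674, chromosome 7 from 126795234 to 126800994), the main aldolase of most tissues, had 1550.0, 797.5 and 1592.8 CPM with vehicle and 661.7, 755.9 and 691.7 CPM with AOA. All AOA libraries were below all vehicle libraries, but vehicle replicate 2 was only slightly above the highest AOA library. The log2 fold change was -0.90 (SE 0.25, edgeR adjusted p = 0.0147), while the differences within mice 1, 2 and 3 were -1.23, -0.08 and -1.20 in log2 CPM. The call was lost without vehicle replicate 1 (-0.74, adjusted p = 0.0616), vehicle replicate 3 (-0.71, 0.0598) or AOA replicate 1 (-0.86, 0.0605), which left 0 enzymes of the list called lower, and over all alternatives the adjusted p lay between 1.70e-05 and 0.0616. Tpi1 (Entrez gene 21991, chromosome 6 from 124810586 to 124814158) had 81.9, 131.6 and 99.2 CPM with vehicle and 303.2, 350.6 and 315.5 CPM with AOA. Its lowest AOA library was well above its highest vehicle library, and with a log2 fold change of 1.63 (SE 0.19, edgeR adjusted p = 1.52e-04) it rose the most of the 9 enzymes. Tpi1 stayed called under every alternative, with adjusted p of at most 0.00190.

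Phosphoglycerate kinase makes the first ATP of the pathway, and Pgk1 is its form in somatic cells. Pgk1 (Entrez gene 18655, chromosome X from 106187100 to 106203699) had 222.9, 104.7 and 219.0 CPM with vehicle and 191.2, 163.6 and 138.7 CPM with AOA. All 3 AOA libraries lay between vehicle replicate 2 and the other vehicle libraries. The log2 fold change of -0.15 (SE 0.27) was not called (edgeR adjusted p = 0.670), with a 95% confidence interval from -0.75 to 0.46. Within mice 1 and 3 Pgk1 was lower with AOA, by -0.22 and -0.66 in log2 CPM, and within mouse 2 it was higher by 0.64. Without vehicle replicate 2 the log2 fold change was -0.39 (adjusted p = 0.0581), and without vehicle replicate 1 or vehicle replicate 3 it changed sign, to 0.05 (0.912) and 0.04 (0.931). Over all alternatives the adjusted p lay between 0.00199 and 0.939.

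The list ends with the enzymes that make pyruvate and lactate. Pkm (Entrez gene 18746, chromosome 9 from 59656576 to 59679372), which yields the PKM1 and PKM2 forms by splicing that gene counts do not separate, had 756.2, 789.0 and 787.3 CPM with vehicle and 1057.8, 1508.5 and 1267.6 CPM with AOA. The vehicle libraries lay close together, all AOA libraries were above them, and the log2 fold change was 0.72 (SE 0.17, edgeR adjusted p = 0.00709). Ldha (Entrez gene 16828, chromosome 7 from 46842274 to 46855627), the subunit that favours the reduction of pyruvate to lactate and so returns NAD+ to the pathway, had 516.9, 556.5 and 623.6 CPM with vehicle and 1682.1, 1461.9 and 1286.4 CPM with AOA. The groups were far apart, with a log2 fold change of 1.38 (SE 0.17, edgeR adjusted p = 2.25e-04). The adjusted p of Pfkl, Pkm and Ldha was at most 0.00704, 0.0334 and 0.00177 over all alternatives, and of these only Ldha was still called when its log2 fold change also had to reach 1 in size. Aldoa, Pgk1 and Ldha are among the genes with close copies or pseudogenes elsewhere in the genome, with which they can share reads, and their counts are uncertain to that extent.

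**Figure D2:**
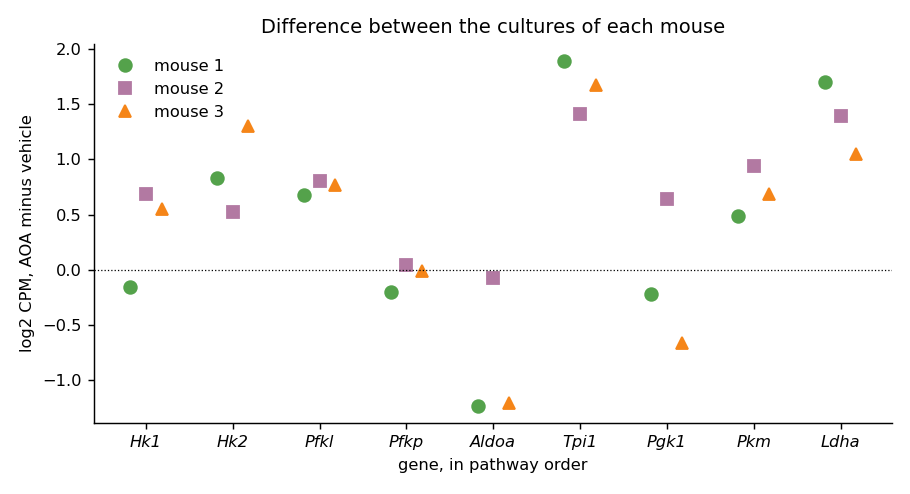
Difference in log2 CPM between the AOA and the vehicle culture of each mouse (vertical axis) for the 9 enzymes in pathway order (horizontal axis), 1 point per mouse. Tpi1 and Ldha lie above 1 in all 3 mice, whereas mouse 2 departs from mice 1 and 3 for Aldoa, at -0.08, and for Pgk1, at 0.64.

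The promoters of the pathway's genes are known for motifs bound by HIF1, whose core can be written ACGTG or, in its other form, GCGTG, and for the E-box CACGTG, which MYC and related factors bind. The windows shown are those of the 2 enzymes that rose most, of the one that fell and, as an example of an enzyme that was not called, of Pgk1, and they are printed so that the promoters of genes with different responses can be read side by side. Sequences are RefSeq promoter windows of GRCm38.p6, from 250 bases before to 50 bases after a transcription start, read on the strand of the gene, with each match to either core on either strand in capitals. Where a gene has several starts, the window with the most matches, or the first of equals, is given.
Tpi1 promoter, chr6:124814109-124814408, minus strand: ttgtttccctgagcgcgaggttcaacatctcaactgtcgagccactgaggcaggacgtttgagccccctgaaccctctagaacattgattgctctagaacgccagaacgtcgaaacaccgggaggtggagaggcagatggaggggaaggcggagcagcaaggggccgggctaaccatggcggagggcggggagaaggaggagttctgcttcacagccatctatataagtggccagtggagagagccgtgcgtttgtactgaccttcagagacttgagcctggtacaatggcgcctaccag
Ldha promoter, chr7:46845554-46845853, plus strand: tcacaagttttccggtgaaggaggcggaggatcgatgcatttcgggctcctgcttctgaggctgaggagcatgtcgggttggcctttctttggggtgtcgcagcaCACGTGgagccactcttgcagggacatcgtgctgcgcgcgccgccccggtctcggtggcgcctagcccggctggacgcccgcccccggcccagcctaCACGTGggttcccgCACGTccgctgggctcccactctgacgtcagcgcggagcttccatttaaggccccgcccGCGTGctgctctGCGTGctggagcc
Aldoa promoter, chr7:126799205-126799504, minus strand: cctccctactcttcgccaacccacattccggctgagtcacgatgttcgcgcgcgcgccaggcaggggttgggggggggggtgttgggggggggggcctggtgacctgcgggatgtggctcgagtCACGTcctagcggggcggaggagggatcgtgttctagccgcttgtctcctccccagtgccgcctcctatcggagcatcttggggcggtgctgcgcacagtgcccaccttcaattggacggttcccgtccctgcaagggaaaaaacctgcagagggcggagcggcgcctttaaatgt
Pgk1 promoter, chrX:106186850-106187149, plus strand: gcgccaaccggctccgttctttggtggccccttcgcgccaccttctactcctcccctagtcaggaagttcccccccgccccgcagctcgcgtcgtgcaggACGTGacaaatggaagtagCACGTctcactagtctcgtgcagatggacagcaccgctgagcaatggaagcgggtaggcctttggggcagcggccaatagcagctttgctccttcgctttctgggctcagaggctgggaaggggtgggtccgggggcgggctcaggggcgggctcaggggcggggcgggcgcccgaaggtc

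The Ldha window held 5 matches to ACGTG and 2 to GCGTG, and since each of its E-boxes reads as ACGTG on both strands, 4 of the 5 came from 2 E-box positions. The Pgk1 window held 2 matches to ACGTG, the Aldoa window held 1, and the Tpi1 window held 0 of any of these motifs. Over the 17 windows of the 10 listed genes, among them 3 of Eno1 that each held GCGTG, 7 held ACGTG, 8 held GCGTG and 1 held CACGTG. Of all 32851 promoter windows of this kind, 19.6% held the first core, 32.4% the other core and 7.15% the E-box, and of the 11991 windows of genes tested here 25.8%, 50.7% and 10% did. Windows of one gene can overlap and are not independent. A match is a stretch of letters and not a measured binding site.

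Compared per length, the enzymes kept much of their order between groups, with exchanges at the top. With vehicle, Aldoa had the highest level, 720.1 ± 245 RPKM (SD, n = 3), above Pkm at 299 ± 7.11 RPKM and Ldha at 293 ± 27.9 RPKM, and Pkm and Ldha overlapped. Pgk1, Pfkp, Tpi1 and Hk1 followed at 99.8, 77.3, 65.1 and 52.1 RPKM, each overlapping the next in the order. Pfkl and Hk2 stood below them and apart from each other at 12.4 and 4.67 RPKM. With AOA, Ldha was first at 765 ± 103 RPKM (SD, n = 3), above Pkm at 492 ± 86.8 RPKM and Aldoa at 385 ± 26.4 RPKM, which overlapped. Tpi1, behind Pfkp with vehicle, came next at 202 ± 15.4 RPKM, apart from Aldoa above it and from Pgk1 below it. Pgk1, Pfkp and Hk1 overlapped in turn at 90.1, 74.8 and 68.9 RPKM, and Pfkl and Hk2 were again the lowest at 20.9 and 8.33 RPKM. The order was the same in each group in TPM, which within a library ranks genes as RPKM does and so is no separate check.

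**Figure D3:**
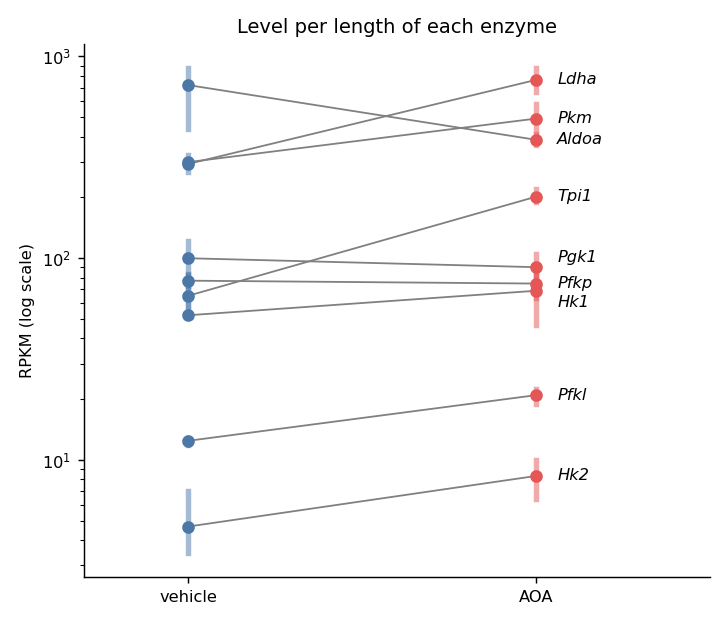
Level of the 9 enzymes in RPKM (vertical axis, log scale) in the vehicle and the AOA group, with points at the mean of 3 libraries, thick bars from the lowest to the highest library and grey lines joining the same gene. Ldha rises to the first position, Tpi1 separates from Pgk1, Pfkp and Hk1, and Aldoa moves from the first place to below Pkm.

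The steps of the pathway that the 9 genes do not cover, and the other isozymes, were read from a list of 23 further glycolysis genes, of which 15 were matched and tested. Of these 5 were higher, 6 were lower and 4 were not called, with a median log2 fold change of -0.17, beside 26.2% higher and 26.8% lower among all genes tested. Among the higher ones, Pgam1, the phosphoglycerate mutase between Pgk1 and enolase, had 23.8, 27.6 and 26.1 CPM with vehicle and 69.3, 67.5 and 52.8 CPM with AOA. Its log2 fold change was 1.29 (SE 0.15, edgeR adjusted p = 1.75e-04), beside 1.63 for Tpi1 and 1.38 for Ldha. Adpgk, an ADP-dependent glucokinase, and Minpp1, a phosphatase also able to act on 2,3-bisphosphoglycerate, rose by 0.90 and 0.66 on the log2 scale.

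The enolase step is represented by a row listed as Eno1b (Entrez gene 433182), which names a retrogene almost identical to Eno1. It had 393.2, 313.1 and 389.7 CPM with vehicle and 776.6, 970.9 and 862.8 CPM with AOA, a log2 fold change of 1.25 (SE 0.17, edgeR adjusted p = 3.28e-04). Its deposited length of 3411 bases is longer than the 3045 bases that the gene spans in RefSeq, and the 2 genes can share reads, so that which of them gave these counts is uncertain and the row was not taken as Eno1. Eno3, the muscle-type enolase, was not called (log2 fold change 0.16, edgeR adjusted p = 0.427). Eno2, the neuronal type, had 42, 43 and 49 counts with vehicle and 3, 3 and 1 with AOA and was called lower (edgeR adjusted p = 6.78e-05).

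Of the other isozymes of the listed enzymes, Aldoc, Hk3 and Ldhb were called and Pfkm was not. Aldoc, the brain-type aldolase, fell from 106.3, 38.9 and 127.6 CPM to 18.4, 17.97 and 14.2 CPM, a log2 fold change of -2.43 (SE 0.38, edgeR adjusted p = 7.15e-04). The RPKM of Aldoa was 22.9, 32.2 and 19.6 times that of Aldoc with vehicle and 56.5, 66.2 and 76.8 times with AOA (exact permutation p = 0.1, adjusted 0.2). Ldhb, the subunit that favours the oxidation of lactate, had 40, 41 and 59 counts with vehicle and 322, 164 and 262 with AOA, and rose 4.08-fold (log2 fold change 2.03, SE 0.26, edgeR adjusted p = 2.77e-04). Even so Ldha made up at least 98.5% of the summed lactate dehydrogenase RPKM in every library, and the log2 ratio of Ldha to Ldhb fell by 0.62 (exact permutation p = 0.2, adjusted 0.267). Hk3, a hexokinase known from myeloid cells, fell from 4.84, 4.82 and 4.23 CPM to 0.965, 1.43 and 0.706 CPM. Pfkm, the muscle-type phosphofructokinase, was not called (log2 fold change -0.21, edgeR adjusted p = 0.378). Gapdhs and Pgam2, forms known from sperm and muscle, were low, at 6.35 ± 1.03 and 6.90 ± 1.42 CPM (SD, n = 3) with vehicle, and fell by 2.40 and 1.13 on the log2 scale.

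The rest of the list, Gpi1, Gapdh and Bpgm, is named after its values were seen. Gpi1, which carries the step between hexokinase and phosphofructokinase, had 1212.1, 743.1 and 1203.5 CPM with vehicle and 576.5, 683.2 and 667.7 CPM with AOA. It shared with Aldoa a vehicle replicate 2 close to the AOA libraries, and its log2 fold change was -0.71 (SE 0.21, edgeR adjusted p = 0.0183). The call was lost without vehicle replicate 1 (-0.57, adjusted p = 0.0811), vehicle replicate 3 (-0.58, 0.0791), AOA replicate 1 (-0.64, 0.0615) or AOA replicate 3 (-0.74, 0.0502), and across the alternatives this p ran from 4.32e-05 to 0.0811. Gapdh, the dehydrogenase step between Tpi1 and Pgk1, which has many near-identical pseudogenes, was not called (log2 fold change 0.30, 95% confidence interval -0.12 to 0.72, edgeR adjusted p = 0.197). Bpgm, which makes 2,3-bisphosphoglycerate, was also not called (-0.17, adjusted p = 0.424).

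**Figure D4:**
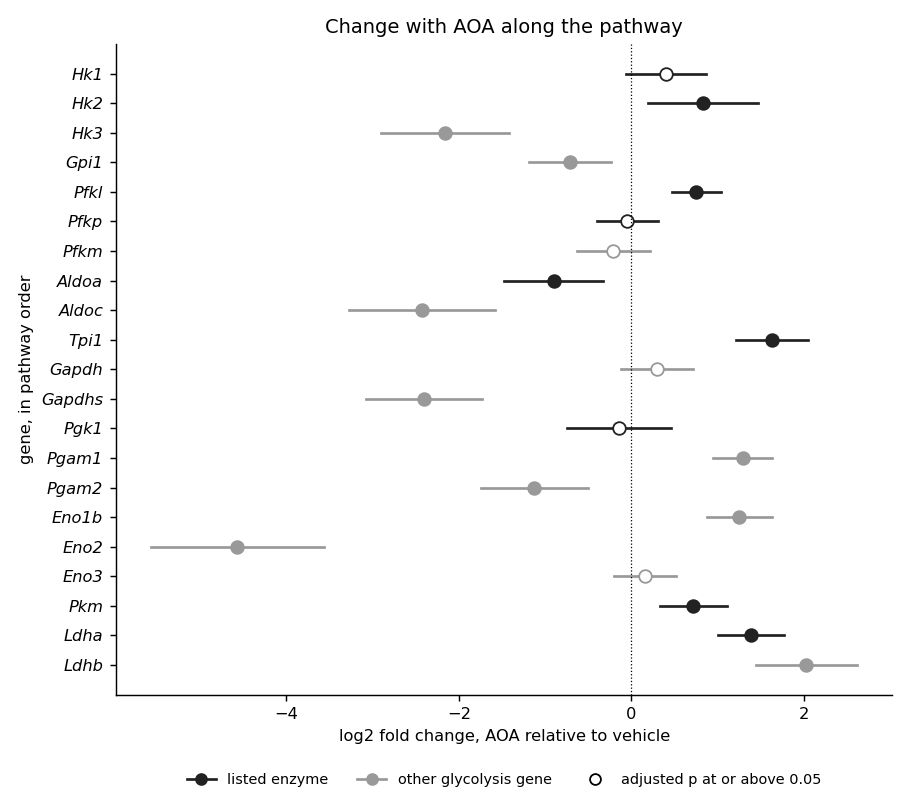
Log2 fold change of AOA relative to vehicle (horizontal axis) for the 9 listed enzymes (black) and the other tested genes of the same steps (grey) in pathway order from top to bottom, with 95% confidence intervals as lines and open points where the adjusted p was 0.05 or more. Neighbouring steps differ in direction, with Gpi1 and Aldoa lower and Tpi1, Pgam1, Pkm and Ldha higher.

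Regulators of the pathway were called in both directions. Of 9 listed genes for enzymes that set the level of fructose 2,6-bisphosphate, an activator of phosphofructokinase, or that inhibit pyruvate dehydrogenase, 8 were tested, with 2 higher, 4 lower and 2 not called, beside the same 26.2% and 26.8% of all genes tested. Pfkfb4, Pfkfb2 and Pfkfb3, bifunctional enzymes that make and break down this activator, were called lower, at -1.45, -0.93 and -0.65 on the log2 scale. The call of Pfkfb3 (edgeR adjusted p = 0.0409) was lost when the mouse entered as a block (-0.63, adjusted p = 0.0601), under limma (-0.62, 0.0514) and without vehicle replicate 1 (-0.49, 0.156), vehicle replicate 3 (-0.51, 0.140), AOA replicate 1 (-0.53, 0.153) or AOA replicate 3 (-0.62, 0.111). Tigar, a phosphatase that removes it, rose by 0.87, a call lost without vehicle replicate 1 (0.74, adjusted p = 0.0511) or AOA replicate 1 (0.81, 0.0592). Across the alternatives this p ran from 0.00122 to 0.156 for Pfkfb3 and from 1.56e-04 to 0.0592 for Tigar. Of the pyruvate dehydrogenase kinases, Pdk3 rose by 1.13 and Pdk2 fell by 1.79 on the log2 scale.

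At the ends and branches of the pathway, 4 of 9 tested genes of pyruvate, glycerol and reverse-flow enzymes were higher and 0 were lower, which is 4 called of 9 beside 53.0% of all genes tested. Mpc1 and Mpc2, which together form the carrier that takes pyruvate into mitochondria, rose by 1.16 and 1.103 on the log2 scale. Pcx, which carboxylates pyruvate to oxaloacetate, rose by 1.08 and Gpd1l, related to glycerol 3-phosphate dehydrogenase, by 0.39. The call of Pcx was lost without vehicle replicate 1 (0.96, adjusted p = 0.0791), vehicle replicate 3 (0.93, 0.0760) or AOA replicate 2 (0.66, 0.0898). The call of Gpd1l was lost without vehicle replicate 3 (0.44, adjusted p = 0.0549), AOA replicate 2 (0.36, 0.0905) or AOA replicate 3 (0.42, 0.0620). Of the 4 transporters of glucose and lactate 2 were higher, 1 was lower and 1 was not called. The lactate carrier Slc16a1 rose by 1.22, while of the glucose transporters Slc2a1 was higher by 0.42 and Slc2a3 fell by 2.06 on the same scale. Slc16a3, another lactate carrier, named after its values were seen, had a log2 fold change of 0.41 that was not called (edgeR adjusted p = 0.0528), and it was called with median-of-ratios size factors (0.0483), with total counts only (0.0447) and with no filter on low counts (0.0396), in a range of adjusted p over the alternatives from 0.0396 to 0.138. The call of Slc2a1 was lost without vehicle replicate 1 (0.39, adjusted p = 0.0834), AOA replicate 2 (0.37, 0.0892) or AOA replicate 3 (0.41, 0.0756). Across the alternatives the adjusted p ran from 3.41e-04 to 0.0898 for Pcx, from 0.00449 to 0.0905 for Gpd1l and from 0.00183 to 0.0892 for Slc2a1.

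Over the 6 libraries, the log2 CPM of Pfkl, Tpi1, Pkm and Ldha followed each other with Pearson r from 0.875 to 0.981, and Hk2 followed them with r from 0.700 to 0.876. Aldoa ran against Hk2 with r of -0.907 and against the other 4 with r from -0.881 to -0.698, and had r of 0.638 with Pgk1. These values are descriptions over 6 libraries that fall into the 2 treatment groups, and share depth and culture. Of the 8753 other tested genes above a mean of 10 CPM, the profiles most like the median profile of the 9 enzymes included those of Gtf3c4, Dnajc2, Abcf2 and Rbbp5, with Pearson r from 0.995 to 0.996 over the 6 libraries. These genes were picked as the highest of 8753 correlations, so values of this size do not show a particular relation to the enzymes.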

How the data were processed

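RNA of the 6 cultures was made into stranded mRNA libraries and sequenced in paired ends. The authors mapped the reads with STAR under its defaults, and the deposited table holds raw counts of reads that mapped to 1 place, with a length for each gene. The submitters' processing notes also name mm10, featureCounts and DESeq2. For the annotation, the strand setting and any gene filter the sources used here give nothing. With 12881962 to 21997078 counts per library, precision is limited by 3 mice and by the spread between libraries of a group. The chi-square per gene between such libraries ran from 10.02 to 71.1. For genes with few counts, counting error limits precision as well.

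The tests were run in R 4.3.3 by edgeR 4.0.16, with filterByExpr at a minimum count of 10, TMM, the robust quasi-likelihood test over all genes, Benjamini-Hochberg adjustment and a threshold of 0.05. The SE is the log2 fold change over the root of F, and a prior count of 2 was used for log2 CPM. Only the edgeR test was tried on simulated data, in which a far smaller share of genes changed than was called here. The other steps were not simulated. Alternatives were DESeq2 1.42.0, limma 3.58.1, other scalings and filters, the mouse as a block and each library left out. Removal of both libraries that stood apart was added after the data had been seen. The labels give mouse donors 1 to 3 in both groups, which was read as the same 3 mice. Deviations from the group means correlated over genes within mice 1, 2 and 3 with r of 0.0868, 0.189 and 0.194. No correlation between different mice was kept for comparison, so these values cannot decide whether that reading holds. The number of sample columns not used was 0.

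The members and lists were chosen with earlier results of these data known. Every listed enzyme is named. Of the other lists, called genes are named, up to 5 in each direction by absolute log2 fold change, with all tested isozymes of the listed enzymes. The likeness rule takes the 5 genes above a mean of 10 CPM with the highest Pearson correlation to the median centred profile, 1 of which is not reported here.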

Additional observations from a re-analysis of the deposited data

How the results depend on the processing

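The 6 calls among the 9 enzymes were the same under DESeq2, limma, both other scalings, both other filters and the mouse as a replicate block, which gave 0.89 for Hk2 and -0.84 for Aldoa. Of the named genes of the enzyme, regulator, branch and transporter lists, only the call of Pfkfb3 changed under the block. The cell type markers were not followed through the alternatives. The paired test of the isozyme ratios within mice allows no exact p below 0.25. With each library left out, 4 to 6 enzymes were called, while 4952 to 6796 of all genes were. The median log2 fold change of the list then ranged from 0.586 to 0.820. Without both vehicle replicate 2 and AOA replicate 1, a choice made after the data had been seen, that median was 0.871, and Hk1 and Pgk1 were called as well, at 0.64 and -0.52. The count for the 15 other glycolysis genes tested then went from 11 to 13, while 7838 of 11775 genes tested were called. The added calls were Gapdh at 0.27 (adjusted p = 0.0188 by edgeR) and Pfkm at -0.30 (0.0259). A log2 fold change of 1 or more in size, required beside the adjusted p, left 3081 of all genes and 2 of the enzymes. With at least 10 CPM in 3 libraries, 6 of the other glycolysis genes were called, beside 4923 of 8876 genes tested. The count was lower since Gapdhs, Pgam2, Eno2, Ldhb and Hk3 were no longer tested. The isozyme ratios kept their direction with each library left out. The cause of the other changes was not tested. The listed enzymes had at least 248 counts in each library, but single libraries held as few as 1 count for Eno2, 14 for Hk3, 18 for Gapdhs and 40 for Ldhb.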

Other observations

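The vehicle libraries shared their treatment and differed in the mouse, and vehicle replicate 2 departed from the others in some glycolytic genes and not in others. Its log2 CPM minus the mean of vehicle replicates 1 and 3 was -1.08 for Pgk1 and -0.98 for Aldoa, and 0.98 for Hk2 and 0.55 for Tpi1. Hk1, Pfkl, Pkm and Ldha differed by -0.01, 0.08, 0.03 and -0.03. Among the other genes of the lists, Aldoc, Pdk1, Pfkfb4, Pfkfb3 and Gpi1 were also lower there, at -1.58, -1.15, -1.08, -0.82 and -0.70, whereas vehicle replicate 1 minus vehicle replicate 3 was -0.26, -0.28, -0.30, 0.04 and 0.01. Pcx, Tigar, Gpd2 and Pfkfb1 were higher there, at 0.91, 0.86, 0.78 and 0.72. The NK cell marker Klrb1c was also higher there, at 111 CPM against 41.7 and 20.1 CPM, and its part in these differences was not tested. Over all genes tested, the median absolute log2 deviation of vehicle replicate 2 was 0.282, and 27.4% of genes deviated by at least 0.5. These genes were picked out after their values had been seen, and no test was made of a difference between single libraries.

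For AOA replicate 1, the log2 CPM minus the mean of AOA replicates 2 and 3 was -0.77 for Hk1, -0.54 for Hk2, -0.39 for Pkm and -0.34 for Pfkp, and 0.34 for Pgk1 and 0.29 for Ldha. Over all genes tested, the median absolute log2 deviation of AOA replicate 1 was 0.278, and 21.1% of genes deviated by at least 0.5.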
